A study of Mus musculus with 12 samples.

Results

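The 7SK, Y, vault and minor spliceosomal RNAs are short non-coding RNAs that work inside ribonucleoprotein particles, and 6 of them were sought by symbol in the tables of stem-like medulloblastoma cells: Rn7sk, Rny1, Rny3, Vaultrc5, Rnu11 and Rnu12. A row was found for 3 of the 6, namely the vault RNA Vaultrc5 (NR_027885), the U11 RNA Rnu11 (NR_002865) and the U12 RNA Rnu12 (NR_004432), out of 4529 rows and 3942 symbols in all. Rn7sk, Rny1 and Rny3 are not analysed here. Small RNA of mouse cells from the cerebellum, all of the genotype Math1-Cre; SmoM2, was read in 12 libraries. In that genotype Cre is driven by Math1 (Atoh1), which is active in granule neuron progenitors, and it switches on an oncogenic form of Smoothened. The control libraries carry the CRISPR guide sgGal4-4 (4 libraries, numbered 1 to 4). The libraries of Miat knockdown, against a long non-coding RNA, carry sgMiat-6 (6-1 and 6-2) or sgMiat-96 (96-1 and 96-2), and those of Mtdh knockdown, against the gene of metadherin, carry sgMtdh-1 (1-1 and 1-2) or sgMtdh-2 (2-1 and 2-2). Whether libraries with the same guide were grown as separate cultures is not in the labels. The p-values therefore rest on the variation among these libraries, and this may be technical variation alone.

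Vault RNAs are made by RNA polymerase III and are bound by the vault, a large barrel-shaped particle of the cytoplasm, though much of the RNA lies outside it. U11 and U12 are the RNAs of the minor spliceosome, which removes a small class of introns. U11 pairs with the 5′ splice site of such an intron and U12 with its branch site, and both enter the intron together as 1 particle. 7SK holds the elongation factor P-TEFb inactive, and Y RNAs bind the Ro60 protein.

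The sequences of U11 and U12 are shown because they place what was counted on the RNA and show the parts by which each RNA works. Both were read from the GENCODE M21 transcripts of GRCm38, 5′ to 3′ and as DNA letters. In Rnu11 (chr4:132270080-132270213, minus strand, 134 bases) the capitals mark the first 27 bases, which lie outside the RefSeq transcript of the counted length. In Rnu12 (chr15:83149644-83149794, plus strand, 151 bases) the capitals mark AAGGAA, the complement of the branch site letters TTCCTT, at positions 20 to 25, and AATTTTTG, a sequence of the kind that Sm proteins bind, at positions 74 to 81.
Rnu11: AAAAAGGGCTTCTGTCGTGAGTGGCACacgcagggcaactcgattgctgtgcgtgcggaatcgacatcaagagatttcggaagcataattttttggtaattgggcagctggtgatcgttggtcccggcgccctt
Rnu12: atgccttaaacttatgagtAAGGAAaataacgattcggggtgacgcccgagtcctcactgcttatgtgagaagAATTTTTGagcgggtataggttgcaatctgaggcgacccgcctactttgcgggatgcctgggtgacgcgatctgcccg
Letters were searched on the strand of the RNA only, in 2977 small RNA transcripts of 100 to 160 bases. AAGGAA was found in 2.96% of them and AATTTTTG in 0.571%, and neither was found in Rnu11. Rnu11 holds the same run with 1 more T, AATTTTTTG, at positions 87 to 95, which was searched after its sequence was seen and was found in 0.470% of the transcripts. AAAGG, the complement of the 5′ splice site letters CCTTT, stands at positions 3 to 7 of Rnu11 and was found in 14.7% of the transcripts, and these positions of Rnu11 are among those not counted. The motifs do not overlap each other, and a match is a description of the letters.

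The FPKM values imply counted lengths of 345 bases for Vaultrc5, 108 for Rnu11 and 150 for Rnu12, which equal the RefSeq transcripts. For Rnu11 this transcript (132270079 to 132270186) begins 27 bases inside the RNA. An exon of the long non-coding gene Gm28872 on the opposite strand (132270056 to 132270213) covers it, and since the strand of counting is not given in the sources used here, reads of Rnu11 and of Gm28872 cannot be told apart. Rnu12 was counted over 83149645 to 83149794, almost its whole length, and its nearest neighbour Poldip3 lies 261 bases away.

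Vaultrc5 lies on the plus strand of chromosome 18, from 36801866 to 36802008 in GENCODE (143 bases). Its RefSeq transcript runs from 36801763 to 36802107 (345 bases), which adds 103 bases before the RNA and 99 after it. The nearest gene, Zmat2, ends 2097 bases upstream. Reads from the flanking bases, if there were any, would be counted as Vaultrc5.

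**Figure D1:**
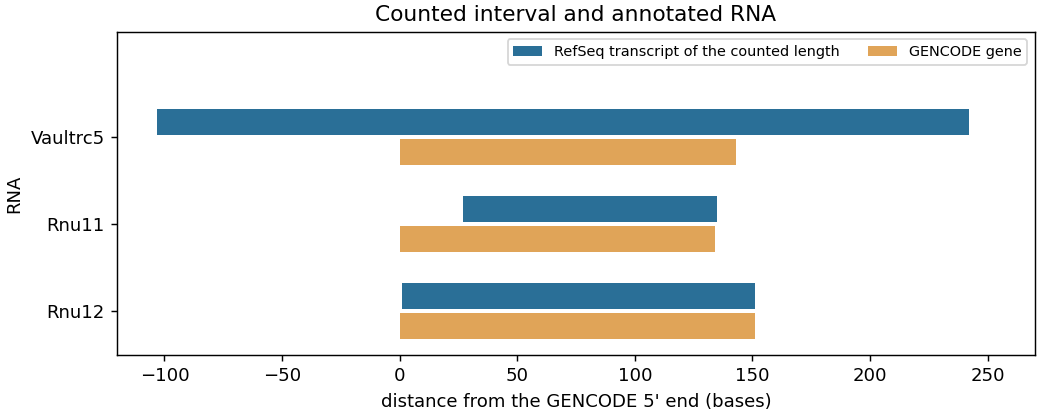
The bars show, for each RNA, the RefSeq transcript of the counted length (blue) and the GENCODE gene (orange), against the distance in bases from the GENCODE 5′ end. The counted interval of Vaultrc5 overhangs the RNA on both sides, that of Rnu11 starts 27 bases late, and that of Rnu12 nearly equals it.

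Values are given as shares of a library's counts outside Rn45s, the ribosomal RNA precursor. Total counts with every row kept were 34263 to 65240 in control, 83544 to 164537 in Miat knockdown and 23318 to 154111 in Mtdh knockdown libraries. With identical repeated rows counted once, the counts outside Rn45s were 14801 to 28202, 13400 to 43443 and 7208 to 36738. On that same base Rn45s held 53.8% to 56.2%, 71.2% to 83.9% and 66.0% to 78.1% of the counts, without overlap between control and knockdown libraries. A share of all counts would thus fall in the knockdowns even where the share outside Rn45s stays level. Miat itself was counted 0 to 1 times in control libraries. It was counted 49 and 30 times in the libraries labelled sgMiat-6, and 1 and 0 times in those labelled sgMiat-96. These counts were thus higher than control for sgMiat-6, against the direction of the label, and are too low to check sgMiat-96. Whether counts in small RNA libraries follow the level of this long RNA was not tested. Of 11 miRNA precursors of neural cells, 8 had counts, while Mir124a-1, Mir124a-2 and Mir124a-3 were at 0. Their summed share was 0.570% to 0.656% in control, 0.276% to 0.362% in Miat and 0.194% to 0.374% in Mtdh knockdown libraries. Every knockdown library thus lay below every control, and the part of this in the differences below was not tested. Of the 138 single transcripts tested below, 32 were likewise without overlap, in either direction, between Miat knockdown and control, and 31 between Mtdh knockdown and control. Markers of haematopoietic, endothelial, mesenchymal and oligodendrocyte cells summed to at most 0.0224% in any library. In such bulk samples fewer cells of a type and less RNA per cell cannot be told apart.

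Vaultrc5 was the best counted of the RNAs, with 52 to 169 counts per library and rank 30 by its control share among the 1665 transcripts with a count in any library. Per kilobase of counted length and per 1000000 counts outside Rn45s, its control level was 12815 ± 1502 (SD, n = 4), above Rnu11 at 4470 ± 2341 and Rnu12 at 3244 ± 954. The control ranges of Vaultrc5 (11173 to 14259) and Rnu11 (2502 to 7662) did not overlap. Those of Rnu11 and Rnu12 (1891 to 4112) did, so the order of the U11 and U12 levels was not resolved. The counted length of Vaultrc5 includes 103 and 99 flanking bases, and that of Rnu11 leaves out 27 bases. Reads of Rnu11 may also include those of Gm28872. Whether counts in these small RNA libraries scale with the counted length was not tested.

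Vaultrc5 made up 0.480%, 0.492%, 0.385% and 0.411% of the counts outside Rn45s in control libraries 1 to 4. It made up 0.145% and 0.157% in the sgMiat-6 libraries and 0.412% and 0.731% in the sgMiat-96 libraries. In the sgMtdh-1 libraries it was at 0.902% and 0.460%, and in the sgMtdh-2 libraries at 0.209% and 0.775%. Both sgMiat-6 libraries lay below every other library, and the libraries of the other 3 knockdown guides lay within, above or below the control range. The group means were 0.442% ± 0.0518 in control, 0.361% ± 0.276 in Miat knockdown and 0.586% ± 0.313 in Mtdh knockdown (SD, n = 4 each).

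**Figure D2:**
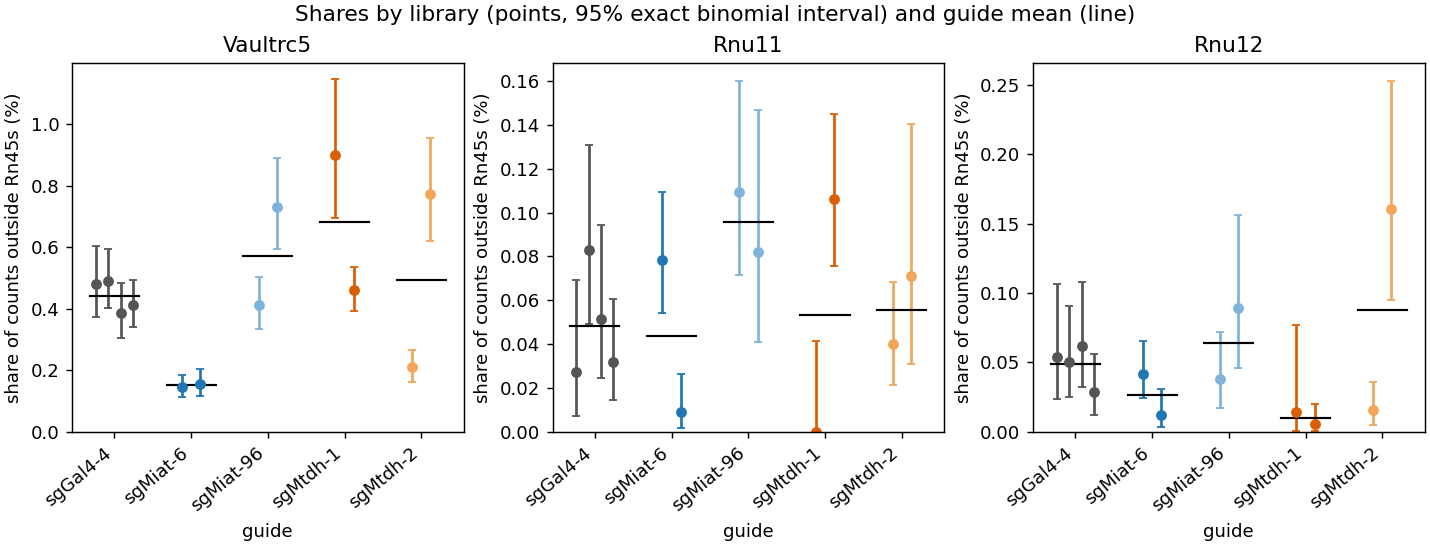
Each point is a library's share of counts outside Rn45s (%, vertical axis from 0) by guide, with its 95% exact binomial interval, which covers counting error only (for the count of 0, up to 3 counts), and lines are guide means. The sgMiat-6 points of Vaultrc5 (0.145% and 0.157%) are the lowest of that panel, and the intervals of Rnu11 and Rnu12 are wide.

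Neither knockdown changed the share of the vault RNA or of the minor spliceosomal RNAs past the test as a group of 4 libraries. Whether counts in these small RNA libraries follow the levels of the whole RNAs was not tested. With edgeR's quasi-likelihood test over the 138 transcripts that passed the filter on low counts, 0 of the 3 RNAs were called for Miat knockdown against control, where 15.9% of all tested were called, 0 of 3 for Mtdh knockdown against control (9.42%), and 0 of 3 for Mtdh against Miat knockdown (5.8%). All 3 RNAs passed that filter. In these group comparisons none of the 3 had an unadjusted p under 0.05 by edgeR, DESeq2 or limma-voom. The log2 fold change of Vaultrc5 was -0.31 (SE 0.54, adjusted p = 0.781 by edgeR) for Miat and 0.39 (SE 0.54, adjusted p = 0.644 by edgeR) for Mtdh knockdown against control. The 95% intervals, -1.45 to 0.83 and -0.76 to 1.53, leave room for changes of more than 2-fold. Those of Rnu11 (-1.07 to 2.07 for Miat and -1.31 to 1.87 for Mtdh) and Rnu12 (-1.98 to 1.64 and -2.01 to 1.74) are wider. The exact permutation test of the mean shares, two-sided with 70 assignments, gave p of 0.257 or more for each RNA in each of the 3 comparisons. In that test 0 of the 138 transcripts passed after adjustment, and 32, 31 and 11 reached the lowest p that it allows, 0.0286.

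The 2 guides against Miat did not give the same level of Vaultrc5. In the sgMiat-6 libraries it was lower than in control, with a log2 fold change of -1.55 (SE 0.49, 95% interval -2.60 to -0.50), which is 2.92-fold (adjusted p = 0.0318 by edgeR). In this comparison 25.4% of the tested transcripts were called, and 1 of the 3 RNAs, so the count is no result about these RNAs as a group. In the sgMiat-96 libraries its log2 fold change against control was 0.36 (adjusted p = 0.555 by edgeR), with 20.3% of transcripts and 0 of the 3 RNAs called. The difference between the guides was itself tested, and Vaultrc5 was 3.76-fold higher with sgMiat-96 than with sgMiat-6, a log2 difference of 1.91 (SE 0.54, adjusted p = 0.0182 by edgeR), beside 26.8% of transcripts called. Both calls use the same 2 sgMiat-6 libraries. They are the only ones among 27 tests of the 3 RNAs in 9 comparisons, with p-values adjusted within each comparison. A fit with a term for the library number (replicate block) gave -1.68 for sgMiat-6 (adjusted p = 0.0851 by edgeR), so that call was lost. In that fit control 3 and 4, whose numbers no knockdown library has, add nothing to the fold change. The difference between the Miat guides kept its call in that fit (adjusted p = 0.0379 by edgeR). The sgMiat-6 call was lost without control 1, 2, 3 or 4 (adjusted p = 0.0649, 0.0672, 0.0518 and 0.0618 by edgeR) and without Miat 6-1 or 6-2 (0.200 and 0.154), while the log2 fold change stayed between -1.61 and -1.49. The difference between the guides missed the threshold without Miat 6-1, 6-2 or 96-2 (adjusted p = 0.120, 0.1001 and 0.144 by edgeR) and on totals that include Rn45s (log2 difference 1.51, adjusted p = 0.104).

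Against Mtdh the 2 guides gave a log2 fold change of Vaultrc5 of 0.59 (adjusted p = 0.455 by edgeR) for sgMtdh-1 and 0.11 (adjusted p = 0.843 by edgeR) for sgMtdh-2. None of the 3 RNAs was called with either guide, beside 11.6% and 21% of transcripts. In the comparison of sgMtdh-2 with sgMtdh-1, 0% of transcripts were called by edgeR (24 of 138 had an unadjusted p under 0.05, and DESeq2 and limma-voom called 3 and 1). The libraries within each guide spread widely: the share of Vaultrc5 was 3.71-fold higher in Mtdh 2-2 than in 2-1 (95% exact interval for counting error 2.67 to 5.17) and 1.96-fold higher in 1-1 than in 1-2 (1.45 to 2.62). It was 1.77-fold higher in Miat 96-2 than in 96-1 (1.33 to 2.37), but the 2 sgMiat-6 libraries differed by 1.08-fold (0.734 to 1.58) and the most distant control libraries by 1.28-fold (0.941 to 1.74). The 3 libraries with the highest share of Vaultrc5 (Mtdh 1-1, Mtdh 2-2 and Miat 96-2) are also the 3 with the fewest counts outside Rn45s, 7208, 11225 and 13400. The 3 with the lowest share (Miat 6-1, Miat 6-2 and Mtdh 2-1) are among the 4 with the most, 43443, 33190 and 32513 counts, and 2 of these carry the sgMiat-6 calls. The part of depth in these levels and calls was not tested. Rn45s held 68.4% and 66.0% of the counts in Mtdh 1-1 and 2-2, the lowest of their group, but 83.9% in Miat 96-2, the highest of all. Without Mtdh 2-2 the log2 fold change of Vaultrc5 for sgMtdh-2 was -1.08.

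**Figure D3:**
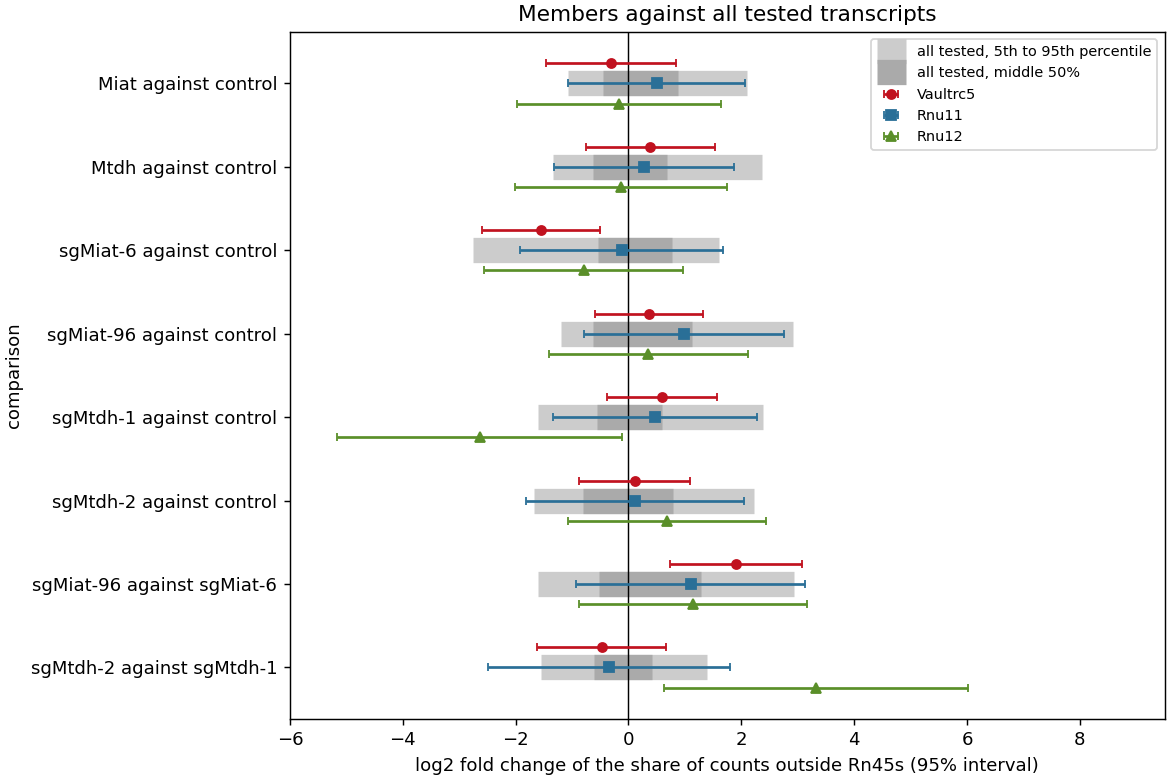
Points are the log2 fold changes of the share outside Rn45s for each RNA and comparison, with 95% intervals, over the 5th to 95th percentile (light grey) and middle 50% (dark grey) of the 138 tested transcripts. The interval of Vaultrc5 excludes 0 for sgMiat-6 (-2.60 to -0.50) and between the Miat guides. That of Rnu12 excludes 0 for sgMtdh-1 (-5.16 to -0.12), the widest against control, and between the Mtdh guides (0.63 to 6.03). The intervals are not adjusted for the number of transcripts, and neither of these Rnu12 differences passed the adjusted test.

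Rnu11, which recognises the 5′ splice site, had 0 to 39 counts per library. Its shares were 0.0270%, 0.0828%, 0.0514% and 0.0319% in control libraries 1 to 4. With Miat knockdown they were 0.0783% and 0.00904% for sgMiat-6, and 0.109% and 0.0821% for sgMiat-96. With Mtdh knockdown they were 0 and 0.106% for sgMtdh-1, and 0.0400% and 0.0713% for sgMtdh-2. The count of 0 in Mtdh 1-1 allows a share of up to 0.0416%, which reaches into the control range. The groups overlap, and some guides spread widely: Miat 6-1 was 8.66-fold above 6-2 (95% exact interval for counting error 2.72 to 44.1). Within sgMiat-96 the libraries differed by 1.33-fold (0.636 to 2.99) and within sgMtdh-2 by 1.78-fold (0.640 to 4.64). The log2 fold change against control was 0.50 (SE 0.74, adjusted p = 0.718 by edgeR) for Miat and 0.28 (SE 0.74, adjusted p = 0.814 by edgeR) for Mtdh knockdown, and both turned negative on totals that include Rn45s, at -0.36 and -0.49.

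Rnu12, which pairs with the branch site, had 1 to 18 counts per library. Its shares were 0.0541%, 0.0506%, 0.0617% and 0.0284% in control libraries 1 to 4. They were 0.0414% and 0.0121% for sgMiat-6, and 0.0379% and 0.0896% for sgMiat-96. They were 0.0139% and 0.00544% for sgMtdh-1, and 0.0154% and 0.160% for sgMtdh-2. Both sgMtdh-1 libraries, with 1 and 2 counts, lie below all controls, as do Mtdh 2-1 and Miat 6-2, and Mtdh 2-2 lies above all others. The 95% exact binomial interval of Mtdh 1-1 reaches up to 0.0773%, above all controls. The pooled control share was 6.78 times that of sgMtdh-1 (39 against 3 counts, 95% exact interval for counting error 2.16 to 34.3). The log2 fold change of -2.64 (SE 1.18) did not pass the test (unadjusted p = 0.0415, adjusted p = 0.179 by edgeR). The difference between sgMtdh-2 and sgMtdh-1, 3.33 on the log2 scale (SE 1.26, unadjusted p = 0.0190), did not pass either (adjusted p = 0.236 by edgeR). The mean shares of the groups were 0.0487% ± 0.0143 in control, 0.0452% ± 0.0323 in Miat and 0.0488% ± 0.0745 in Mtdh knockdown (SD, n = 4 each), and the Mtdh mean rests on Mtdh 2-2.

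U11 and U12 enter the intron together as 1 particle. Their counts were set against each other, a description chosen after the values were seen and given without a test. The counted lengths differ, at 108 bases for Rnu11 and 150 for Rnu12, and that of Rnu11 leaves out its first 27 bases. Reads of Rnu11 may also include those of Gm28872, so these shares do not give the ratio of U11 to U12. Rnu11 made up 51.3% of the 80 counts of both in the pooled control libraries (95% exact binomial interval 39.8% to 62.6%), with 33.3% to 62.1% in single control libraries. It made up 62.7% of 59 counts for sgMiat-6 (49.15% to 74.96%), of which 52 come from the library Miat 6-1, and 63.8% of 58 for sgMiat-96 (50.1% to 76.0%). Single libraries were at 65.4% and 42.9% for sgMiat-6, and at 74.3% and 47.8% for sgMiat-96. With sgMtdh-1 it made up 92.9% of 42 counts (80.5% to 98.5%), of which 41 come from the library Mtdh 1-2, and with sgMtdh-2 47.7% of 44 counts (32.5% to 63.3%). Mtdh 1-1 held 1 count of both RNAs together and adds nothing to the sgMtdh-1 share. The single sgMtdh-2 libraries stood apart, at 72.2% (Mtdh 2-1) and 30.8% (Mtdh 2-2). All these intervals cover counting error only.

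Across the 12 libraries the share of Vaultrc5 and that of Rnu11 had a Pearson correlation of -0.004 on the log2 scale, and Rnu12 had 0.39 with each of them. Before the logarithm the share of 1 count in the smallest library (0.0139%) was added to each share. This is as large as the lowest shares of Rnu11 and Rnu12, so it sets part of their correlations. The correlations are descriptions over libraries that share a denominator. The transcripts whose shares were most like those of Vaultrc5 over the 12 libraries were 4922502N22Rik (r = 0.89), Gnas (r = 0.87), counted as a non-coding transcript of that locus, and the small nucleolar RNA Snord11 (r = 0.85). All 3 were low with sgMiat-6, which their choice by likeness to Vaultrc5 over these libraries favours and which supports nothing further. 4922502N22Rik had mean shares of 0.239% in control, 0.0152% for sgMiat-6 and 0.658% for sgMiat-96. Snord11 had 0.779%, 0.464% and 1.05%. For Rnu11 they were Pisd-ps3 (r = 0.68), Snord23 (r = 0.66) and Snord99 (r = 0.60), a weaker likeness in sparse counts. Rnu12 had a mean of 9 counts per library, under the minimum of 10 set for this comparison.

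**Figure D4:**
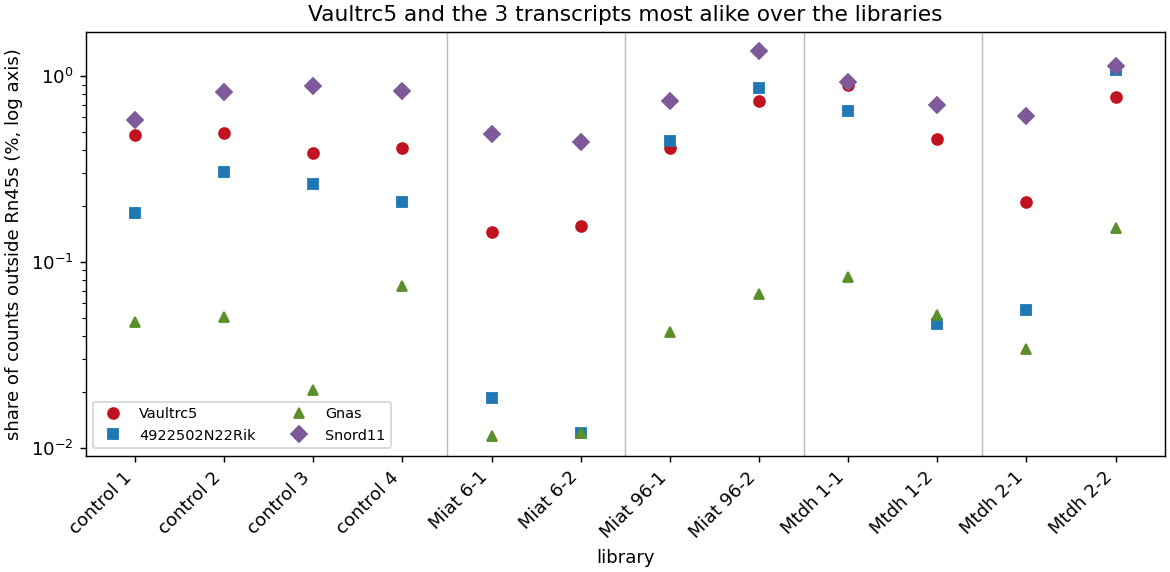
Points are shares of counts outside Rn45s (%, log axis) by library for Vaultrc5 and the 3 transcripts most like it, with vertical lines between guides. All 4 are low in Miat 6-1 and 6-2, where Vaultrc5 was at 0.145% and 0.157%, and the libraries of sgMtdh-1 and sgMtdh-2 differ within each guide.

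Lists of other short RNAs set these RNAs among their kind. Of their 3 tested members, 2 were called higher and 1 lower in Miat knockdown against control, beside 14 higher and 8 lower of all 138 tested. In Mtdh knockdown 2 were called higher and 0 lower, beside 8 and 5 of the 138. Of the major spliceosomal and other small nuclear RNAs, 2 had a row (Rnu6 and Rnu7) and both had 0 counts in every library. Of 5 other RNA polymerase III transcripts with a row, 4 had counts and 2 were tested. Rmrp, the RNA of RNase MRP, held 29.7% to 31.0% of the counts outside Rn45s in control libraries. It was lower in Miat knockdown, with a log2 fold change of -0.46 (adjusted p = 0.0156 by edgeR), and had -0.33 in Mtdh knockdown (adjusted p = 0.0948 by edgeR). Rpph1, the RNA of RNase P, was 2.91-fold higher in Miat (adjusted p = 0.00467 by edgeR) and 5.48-fold higher in Mtdh knockdown (adjusted p = 0.000274 by edgeR). The directions held under 5 other scalings, but the call of Rmrp in Miat knockdown was lost with DESeq2 size factors (adjusted p = 0.0629 by edgeR). With the replicate block only 1 of the 138 transcripts was called for Miat knockdown, so at most 1 of the 3 calls listed for it held there. The call of Rpph1 in Miat knockdown was lost on totals that include Rn45s (log2 fold change 0.75, adjusted p = 0.224 by edgeR). On those totals Rmrp had -1.27 in Miat and -1.003 in Mtdh knockdown, the latter then called (adjusted p = 0.00814 by edgeR). Between the Miat guides Rpph1 had a difference that did not pass the test (log2 difference -0.06, adjusted p = 0.930 by edgeR). Of 6 RNAs in the list of other short RNAs, 4 had counts and 1 was tested, Rprl3, a relative of the RNase P RNA that may share reads with Rpph1, since the treatment of reads with several positions is not given in the sources used here. Its log2 difference between sgMiat-96 and sgMiat-6 was 5.63 (adjusted p = 1.35e-05 by edgeR), with the sign that Vaultrc5 has, and that of Rmrp was -0.37 (adjusted p = 0.0296 by edgeR), with the other sign. Against control Rprl3 had 1.31 with sgMiat-6 (adjusted p = 0.0548 by edgeR), where Vaultrc5 had -1.55.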

How the data were processed

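Each library has a deposited table of raw counts by RefSeq non-coding transcript, and the authors set FPKM and TPM values beside them, per the file headers. The counts were used for all tests, and the deposited FPKM only for the lengths they imply. STAR, GRCm38 and mm10 are named in the submitters' processing notes; for versions, the counter, strand and adapter trimming, no details are given in the sources used here. Repeated rows of a symbol with identical counts (172) were counted once, then rows were summed by symbol.

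The members and lists were chosen with earlier results of these data known. The RNAs named are the 6 of the rule, up to 3 members of each related list by mean share, and the 3 transcripts most alike by Pearson correlation. The list called other short RNAs holds Rprl1 to Rprl3, which are relatives of RNase P RNA.

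Counts without Rn45s went into edgeR 4.0.16 (R 4.3.3): filterByExpr by group (minimum count 10, minimum total 15), library sizes equal to counts outside Rn45s, quasi-likelihood fits over 12 libraries with 1 term per group (common dispersion 0.254) or per guide (0.127), and Benjamini-Hochberg adjustment over 138 transcripts at 0.05. DESeq2 1.42.0 and limma-voom 3.58.1 were alternatives. The code was tested on simulated data. Exact permutation tests and intervals used scipy 1.17.1. Intervals and floors (3 counts) cover counting error only. RNA coordinates come from GENCODE M21 and the RefSeq table of GRCm38.p6, and sequences from the GENCODE transcripts.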

Additional observations from a re-analysis of the deposited data

Results flagged for a closer look

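The share of Rnu12 in Mtdh 2-2, 0.160%, stands apart from the other Mtdh knockdown libraries (0.00544% to 0.0154%). Its gap to the next library is 0.936 of the range of the group, past the critical value of Dixon's test for 4 libraries. It rests on 18 counts, and it was the only one of 9 sets of libraries that stood out. Chance alone picks out about 1 set in 20.

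Vaultrc5 differed between the 2 guides against Miat by 1.91 on the log2 scale (adjusted p = 0.0182 by edgeR), as the test of the difference itself found. The same 2 libraries of sgMiat-6 hold 49 and 30 counts of Miat, where those of sgMiat-96 hold 1 and 0, and the part of this in the difference was not tested.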

How the results depend on the processing

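The log2 fold change of Vaultrc5 for sgMiat-6 kept its call in 14 of 15 alternatives that leave all its libraries in (-2.25 to -1.53), and the difference between the Miat guides kept its call in 13 of 14. Rnu11 and Rnu12 were not called in any alternative that gave them an adjusted p (lowest 0.0579). They had none at a minimum count of 30, with only the 2 guides compared for the differences between guides, or with DESeq2 for Miat against control. The library numbers run from 1 to 4 in control and are 1 and 2 for each knockdown guide, and whether these pair the libraries is not settled. Control 3 and 4 share their number with no knockdown library. In the replicate block they thus add nothing to a difference from control, so calls lost there may reflect fewer controls. Deviations from group means of same-numbered libraries correlated at -0.304 to 0.379, over 0.1 in 4 of 16 pairs. Pairs with other numbers were over 0.1 in 9 of 32. These deviations also hold the differences between the guides of a group, so they cannot exclude a pairing. With the replicate block the calls were 1 for Miat, 3 for Mtdh and 2 for Mtdh against Miat. They were 10, 17, 8 and 6 for sgMiat-6, sgMiat-96, sgMtdh-1 and sgMtdh-2 against control, and 23 between the Miat guides. Under the block Vaultrc5 for sgMiat-6 had -1.68 (adjusted p = 0.0851 by edgeR), Vaultrc5 and Rnu11 for sgMtdh-2 had -0.11 and -0.0358, and Rnu12 for Mtdh against Miat had -0.17.

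Counts of called transcripts moved as follows, and the cause was not tested. The 22 calls for Miat became 36 without guide sgMiat-96 and 11 to 29 leaving out 1 library (fewest without control 3). The 13 for Mtdh became 44 on totals with Rn45s, 7 at a minimum count of 30, 21 with only the 2 groups, 25 with 1 term per guide, 21, 24 and 8 without guide sgMiat-6, sgMiat-96 and sgMtdh-2, and 7 to 19 leaving out 1 library (7 without control 1, control 4, Mtdh 1-1 or Mtdh 2-2). The 8 for Mtdh against Miat became 5 with TMM, 4 on totals with Rn45s, 14 with no filter, 13 with DESeq2, 2 with only the 2 groups, 18 with 1 term per guide, 43 and 1 without guide sgMiat-96 and sgMtdh-2, and 2 to 14 leaving out 1 library (2 without Miat 6-1, Miat 6-2 or Mtdh 2-1). For sgMiat-6 the 35 became 61 with only the 2 groups and 8 to 44 leaving out 1 library (8 without Miat 6-1). For sgMiat-96 the 28 became 57, for sgMtdh-1 the 16 became 36 and for sgMtdh-2 the 29 became 58 on totals with Rn45s. The last became 18 with no filter and 13 to 39 leaving out 1 library (13 without control 2). Between the Miat guides the 37 became 12 to 43 leaving out 1 library (12 without Miat 6-1). Between the Mtdh guides the 0 became 1 with no filter, 2 at a minimum count of 30, 3 with DESeq2, 1 with limma-voom and 0 to 8 leaving out 1 library (8 without Mtdh 1-1). Totals with Rn45s moved the median log2 fold change of all tested transcripts from 0.23 to -0.65 for Miat and from -0.09 to -0.83 for Mtdh. The calls for Miat went from 14 higher and 8 lower to 4 and 24, those for Mtdh from 8 and 5 to 7 and 37, and those for sgMiat-6 from 19 and 16 to 2 and 26.

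Fold changes that had not passed the test changed sign as follows. On totals with Rn45s Rnu11 had -0.36 for Miat, -0.49 for Mtdh, -0.41 for sgMtdh-1 and -0.55 for sgMtdh-2. Vaultrc5 had -0.19 for Mtdh, -0.74 for sgMiat-96, -0.0372 for sgMtdh-1 and -0.41 for sgMtdh-2, and Rnu12 had -0.76 for sgMiat-96. On totals outside Rn45s and Rmrp Vaultrc5 and Rnu11 had -0.0190 and -0.0234 for sgMtdh-2. Rnu12 for Mtdh had 0.0811 with DESeq2 size factors, 0.0441 with upper-quartile factors, 0.18 with DESeq2 and 0.76 without guide sgMtdh-1. With limma-voom Rnu11 had 0.20 for Mtdh against Miat, -0.0434 for sgMtdh-1 and 0.14 between the Mtdh guides (0.0623 with DESeq2), Rnu12 had -1.05 for Mtdh against Miat and -0.42 for sgMtdh-2, and Vaultrc5 had -0.31 for sgMtdh-2. Rnu12 for Mtdh against Miat had -0.75 with 1 term per guide, -0.50 without guide sgMiat-6 and -2.42 without sgMtdh-2. Rnu11 had -0.13 for Miat and 0.41 for Mtdh against Miat without guide sgMiat-96. For Miat, without guide sgMiat-6, Rnu12 had 0.36 and Vaultrc5 0.36. Without guide sgMiat-96, which leaves only the sgMiat-6 libraries in the Miat group, Vaultrc5 kept its sign and became called. It had -1.55 for Miat (adjusted p = 0.0432 by edgeR) and 1.92 for Mtdh against Miat (adjusted p = 0.0111 by edgeR).

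Leaving out 1 library gave Rnu12 -0.65 to 0.17 for Miat, -2.10 to 0.35 for Mtdh, -1.94 to 0.54 for Mtdh against Miat, -0.34 to 0.89 for sgMiat-96 and -1.61 to 1.73 for sgMtdh-2. It gave Rnu11 -0.29 to 0.66 for Mtdh, -0.79 to 0.0871 for Mtdh against Miat, -2.36 to 0.68 for sgMiat-6, -6.48 to 1.12 for sgMtdh-1, -0.28 to 0.55 for sgMtdh-2 and -1.003 to 6.59 between the Mtdh guides. It gave Vaultrc5 -0.10 to 0.73 for sgMiat-96, -1.08 to 0.81 for sgMtdh-2 and -1.66 to 0.23 between the Mtdh guides. Where a guide keeps 1 library, that library is assumed to vary like the others. The Rnu11 values -6.48 and 6.59 are those without Mtdh 1-2, where sgMtdh-1 keeps only Mtdh 1-1 with a Rnu11 count of 0. Their size therefore cannot be read from the counts. Differences of mean shares, in percentage points, were -0.00466 for Rnu11 in Miat, -0.0214 for Vaultrc5, -0.00710 for Rnu11 and -0.00597 for Rnu12 in Mtdh as shares of all counts, and -0.00568 for Rnu12 in Mtdh outside Rn45s and Rmrp. Leaving out 1 library they were -0.0182 to 0.00762 (Rnu12, Miat), -0.0112 to 0.0242 (Rnu11, Mtdh), -0.0371 to 0.0145 (Rnu12, Mtdh), -0.0356 to 0.00277 (Rnu11, Mtdh against Miat) and -0.0337 to 0.0183 (Rnu12, Mtdh against Miat). Counts of 0 to 39 limit Rnu11 and Rnu12.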
